A study of Mus musculus with 6 samples.

Results

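The subunits of the mitochondrial respiratory chain that are encoded in the nucleus were examined in cells of bronchoalveolar lavage fluid, the saline wash of airways and alveoli, from mice given sulfatide or vehicle. The genes were chosen by symbol alone. They begin with Nduf followed by a, b, c, s or v, with Uqcr, with Cox followed by a digit of 4 to 8, or with Atp5, and Cycs and Cyc1 were added. This gave 96 of the 22800 genes in the deposited table. Of these, 37 encode subunits of complex I, 9 of complex III, 20 of complex IV and 17 of complex V. The pattern also took in 8 assembly factors of complex I (Ndufaf1 to Ndufaf8), the electron carrier Cycs and 4 copies or pseudogenes (Ndufab1-ps, Ndufb4b, Ndufb4c and Ndufs6b).

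The sulfatide group held 3 libraries (replicates 1, 2 and 3 in the sample titles) from mice injected with 20 µg of sulfatide into the peritoneal cavity. The vehicle group held 3 libraries (replicates 2, 3 and 4). Sulfatide is a sulfated glycolipid that CD1d presents to type II natural killer T cells, and the series title names alveolar macrophages and lung ischemia-reperfusion injury. The labels give no strain, age, sex or time after injection, and do not state whether either group underwent ischemia and reperfusion. Nor do they tie the libraries to separate animals, so p-values cover only the spread of these samples, and part of that spread may be technical.

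The respiratory chain passes electrons from NADH through complex I, and from succinate through complex II, to ubiquinone. Complex III hands them to cytochrome c and complex IV to oxygen. The protons pumped on the way drive the ATP synthase, complex V. Each of these complexes except complex II combines subunits made in the mitochondrion with subunits imported from the cytosol. The imported ones are of 2 kinds: a few large core proteins that carry the redox centres or catalytic sites, and many small subunits that stabilise or regulate the complex. In macrophages, respiration falls and glycolysis rises on inflammatory activation by bacterial products, whereas interleukin-4 activation is known to raise respiration.

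Values were FPKM, fragments scaled to transcript length and library total, and were compared as log2(FPKM + 1) with limma. Genes were tested where at least 3 libraries reached 1 FPKM, and were called at a Benjamini-Hochberg adjusted p below 0.05 over all 10405 genes tested. FPKM summed to 1217971 to 1249691 in sulfatide libraries and to 1126779 to 1168474 in vehicle libraries. Macrophage markers were abundant, apart from Mertk at 2.13 to 4.22 FPKM. All 6 of the list (Adgre1, Cd68, Lyz2, Csf1r, Mertk and Fcgr1) were tested and none was called. Log2 fold changes were positive for 3 of them and negative for 3. By limma, Adgre1 (-0.31, adjusted p = 0.0888) and Fcgr1 (-0.63, adjusted p = 0.129) had an unadjusted p below 0.05. Summed FPKM of the list was 26934 to 38107 in sulfatide libraries and 29533 to 34209 in vehicle libraries, and Lyz2 alone made up most of each sum. Among alveolar macrophage markers, every library listed Fabp1 and Krt79 at 0, and Siglecf and Car4 stayed below 1 FPKM. The list summed to 86.4 to 233 FPKM in sulfatide libraries and to 106 to 139 in vehicle libraries, and none of its 4 tested genes was called. Neutrophil markers summed to 456 to 627 FPKM in sulfatide libraries and to 167 to 230 in vehicle libraries. S100a8 was the largest part of each sum, though less than the rest together in vehicle replicate 2. S100a8 was at 361, 471 and 427 FPKM in sulfatide libraries, against 114, 91.7 and 109.7 in vehicle libraries, and was called higher, as was Mmp8, whose groups overlapped. S100a9 (adjusted p = 0.804) and Csf3r (adjusted p = 0.144) were not called, with log2 fold changes of -0.15 and 0.33, and Ly6g and Cxcr2, which define neutrophils, did not exceed 0.18 FPKM. Markers of T and NK cells summed to 0.40 to 0.90 FPKM in sulfatide libraries and 0.55 to 0.82 in vehicle libraries, and those of epithelium to 0.08 to 0.23 in sulfatide and 0 to 0.07 in vehicle libraries, too low for any to be tested. Cd3e, Ncr1, Nkg7, Sftpc and Krt18 were at 0 throughout. B cell markers summed to 1.24 to 1.40 FPKM in sulfatide libraries and 0.35 to 1.36 in vehicle libraries, with Ms4a1 at 0. Monocyte markers summed to 21.9 to 36.7 FPKM in sulfatide and 23.9 to 38.0 in vehicle libraries, and red cell and platelet markers to 11.8 to 16.4 in sulfatide and 11.7 to 16.8 in vehicle libraries with Hbb-bs at 0, and none of these 3 lists had a called gene. Endothelial and stromal markers summed to 17.9 to 23.8 FPKM in sulfatide libraries and 24.8 to 32.3 in vehicle libraries, with Pdgfrb called lower. Of the 5 genes listed for RNA quality and handling stress, the inducible heat shock genes Hspa1a and Hspa1b were called lower. The part of these differences in the results below was not tested.

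Most respiratory chain transcripts stood slightly higher in sulfatide libraries, and a minority of them were called. Of the 91 genes tested, 19 were called higher (20.9%) and 1, Cycs, was called lower, while 71 were not called. An unadjusted limma p below 0.05 was found for 51 of the 91, and for 3517 of all 10405 genes tested. Over all genes tested, 865 (8.31%) were called higher and 1078 (10.4%) lower, together 18.7%. After rescaling each library to TPM these were 467 and 1527. Of the respiratory chain genes 4 were then higher, about the same share as of all genes tested, and 1 was lower. The median log2 fold change (sulfatide minus vehicle) was 0.30 over the 91 genes and 0.037 over all tested genes. It was positive for 89 genes and negative for 2 (Atp5b and Cycs), against 55.3% positive of all genes tested. After TPM it was positive for 79 and negative for 12, against 40.3% positive of all genes, and the medians were 0.19 and -0.06. All sulfatide libraries lay above all vehicle libraries for 41 of the 91 genes, against 18.6% of all genes tested, and all lay below for 1, against 18.3%, while 49 overlapped. In bulk samples, more RNA per cell and more cells of a type cannot be told apart.

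This count of 19 rested on the composition of the groups. It was 56 when vehicle replicate 3 was left out, but 1 without vehicle replicate 2 and 2 without vehicle replicate 4. Over all 10405 genes tested, these fits called 1421, 268 and 432 higher. Leaving out sulfatide replicates gave 2 (replicate 1), 21 (replicate 2) and 2 (replicate 3), and over all genes tested 354, 805 and 450. The count of 19 also went with transcript length, as described next. With the trend of each library on transcript length and GC content removed, 7 of 90 genes were called higher and Cycs lower. The same fit called 990 of all 10328 genes with a length higher, a slightly larger share.

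**Figure D1:**
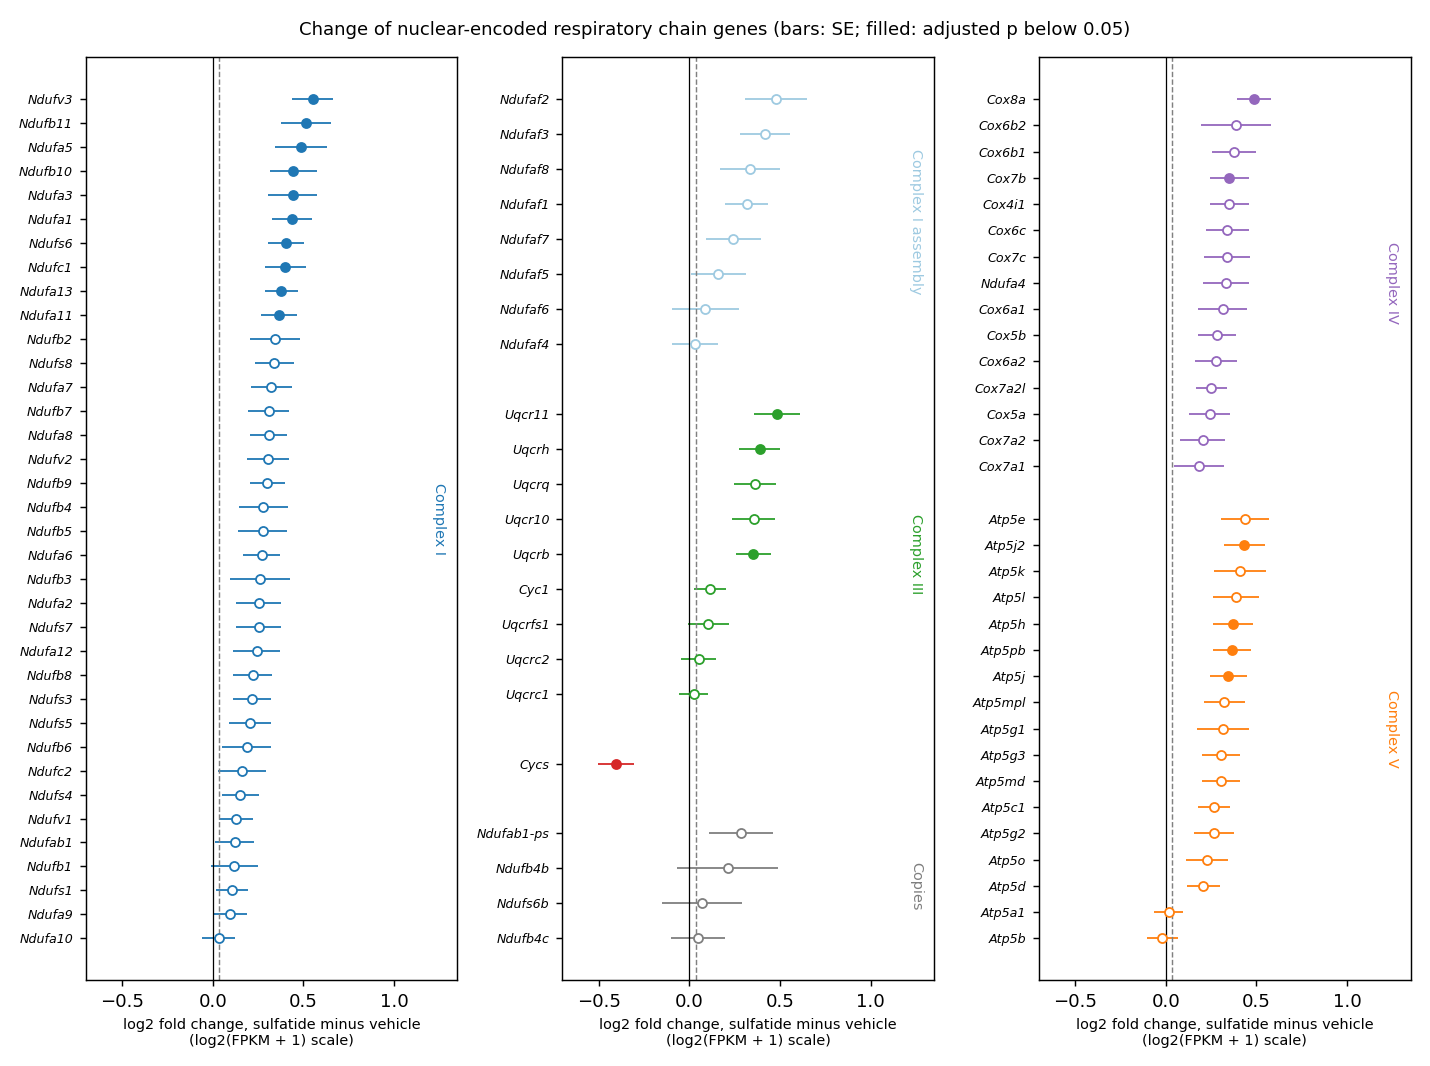
Log2 fold change of 90 of the 91 tested genes, by complex, as the sulfatide minus the vehicle mean of log2(FPKM + 1); points are limma estimates, bars 1 SE, filled points called genes, and the dashed line the median of all genes tested (0.037). The 19 genes called higher lie between 0.35 and 0.55, Atp5a1 and Atp5b lie near 0, and Cycs lies at -0.41; after rescaling to TPM 12 genes, not 2, are negative.

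Respiratory chain transcripts are short. Their median length was 711 nucleotides, against 2560 over all genes tested, and short transcripts outside the respiratory chain also tended to stand higher in sulfatide libraries. Among tested genes outside the respiratory chain, the median log2 fold change was 0.29 under 600 nucleotides (186 genes), 0.22 from 600 to 1000 (734 genes), 0.11 from 1000 to 2000 (2712 genes) and -0.02 from 2000 up (6606 genes). The respiratory chain genes of the same lengths had medians of 0.35 (32 genes), 0.31 (28), 0.17 (21) and 0.11 (9). In the shortest bin, 28.1% of respiratory chain genes and 24.7% of other genes were called higher. The next bins gave 25.0% and 19.2%, then 14.3% and 11.7%, then 0 and 5.07%, again with the respiratory chain first. In the 3 shorter bins, the medians of respiratory chain genes and other genes lay closer to each other than either lay to the median of all genes tested (0.037). In the bin from 2000 nucleotides up, with 9 respiratory chain genes, they lay further from each other than either lay from it.

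Across the 90 genes with an annotated length, log2 length and log2 fold change had a Pearson r of -0.539 and a Spearman rho of -0.469. Over 10328 tested genes they were -0.201 and -0.305. These correlations are across genes measured in the same 6 libraries and are given as a description. After removal of the trend with length and GC content, the median of the 90 genes was 0.084, against 0.039 for all genes. Of the 90, 74 were positive and 16 negative, against 56.5% positive of all genes. The 7 genes then called higher were Atp5pb (log2 fold change 0.32), Cox7b (0.25), Ndufv3 (0.31), Ndufa13 (0.26), Ndufb11 (0.35), Atp5j2 (0.23) and Ndufc1 (0.23), each by limma with an adjusted p of at most 0.0478. Cox8a was at 0.20 with an adjusted p of 0.0544, while Cycs stayed lower at -0.40 (adjusted p = 0.00462). The size of this reduction depended on which transcripts defined length. With medians over all protein-coding transcripts of a gene, in place of those of the annotation's basic set, 15 genes were called higher and the median was 0.17. Over all 10328 genes with a length, 990 were called higher with the basic set and 1060 with all protein-coding transcripts. The 7 of 90 were thus a smaller share than that of all genes with the basic set. With all protein-coding transcripts, the 15 were a larger share. Why short transcripts differ between the groups was not tested.

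**Figure D2:**
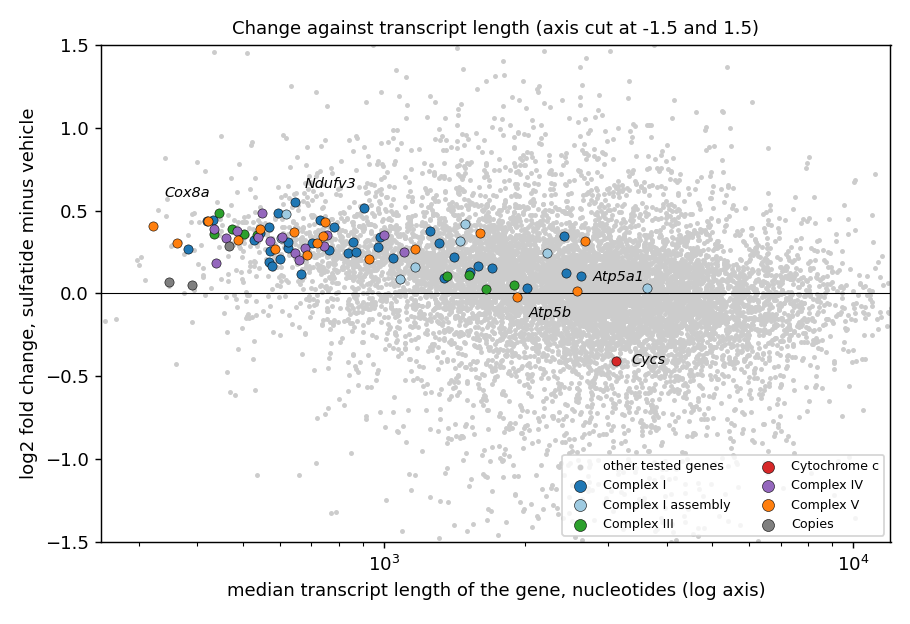
Log2 fold change (sulfatide minus vehicle, log2(FPKM + 1) scale) against median transcript length in nucleotides on a log axis, for 90 respiratory chain genes coloured by complex and for other tested genes in grey. The respiratory chain genes under 600 nucleotides have a median of 0.35, other genes of that length a median of 0.29, and Cycs stands apart at -0.41 with a length of 3123 nucleotides.

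Complex I, the NADH dehydrogenase, had 10 of 37 subunits called higher (27.0%, against 8.31% of all genes tested) and none lower. Its median log2 fold change was 0.28, against 0.037 for all genes tested. All 10 were accessory subunits, of 30 tested. Of the 7 catalytic core subunits none was called by limma, although 2 had an unadjusted p below 0.05. Over all 10405 genes tested 3517 had such a p, which also applies to the counts of this kind below. Median log2 fold changes were 0.29 for accessory and 0.22 for core subunits, and median lengths were 686 and 1312 nucleotides. The difference between these classes was not tested.

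Ndufv3, a small accessory subunit of the NADH-oxidising module (chr17:31520115-31531331), had the largest change of the complex. It reached 69.7, 62.4 and 60.4 FPKM in sulfatide replicates 1, 2 and 3, against 40.9, 50.4 and 39.4 FPKM in vehicle replicates 2, 3 and 4. The groups did not overlap, and vehicle replicate 3 was the highest of its group. The log2 fold change was 0.55 ± 0.11 (SE, limma adjusted p = 0.0106), and it was called in 5 of 6 fits that left out a library. Ndufa13, which is also known from cell death signalling, was at 281, 239 and 259 FPKM in sulfatide libraries, against 194, 214 and 189 in vehicle libraries (0.38 ± 0.09, adjusted p = 0.0214). Ndufs6, a zinc-binding subunit needed late in assembly, was at 203, 172 and 177 FPKM in sulfatide libraries, against 128, 152 and 136 in vehicle libraries (0.40 ± 0.10, adjusted p = 0.0236). Ndufa1, a membrane subunit encoded on the X chromosome, was at 387, 334 and 352 FPKM in sulfatide libraries, against 238, 306 and 249 in vehicle libraries (0.44 ± 0.11, adjusted p = 0.0257). In each of these genes sulfatide replicate 1 was the highest library and vehicle replicate 3 the highest of its group.

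The other called subunits were Ndufb11, Ndufa11, Ndufc1, Ndufb10, Ndufa5 and Ndufa3, with folds of group means of 1.42, 1.29, 1.33, 1.36, 1.39 and 1.37. Apart from Ndufv3, each called subunit of complex I kept its call in only 1 or 2 of the 6 fits that left out a library. The core subunit with the largest change was Ndufs8, which carries iron-sulfur clusters, at 118, 102 and 97.8 FPKM in sulfatide libraries, against 79.8, 93.9 and 77.5 in vehicle libraries (0.34 ± 0.11, adjusted p = 0.0566). Ndufv1, which binds the flavin that accepts electrons from NADH, was at 83.2, 73.3 and 78.9 FPKM, against 65.3, 77.8 and 72.2 in vehicle libraries (0.13 ± 0.10, adjusted p = 0.373). Ndufs1, the largest iron-sulfur subunit, was nearly level, at 50.7, 47.0 and 46.0 FPKM in sulfatide libraries, against 45.2, 46.3 and 41.8 in vehicle libraries (0.11 ± 0.09, adjusted p = 0.429). For Ndufv1 and Ndufs1 the groups overlapped.

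The most abundant complex I subunits were not called. Ndufa2 had 578, 458 and 585 FPKM in sulfatide libraries, against 416, 521 and 422 in vehicle libraries (adjusted p = 0.187), and Ndufb1 had 424, 341 and 319, against 347, 362 and 286 (adjusted p = 0.545). The smallest change was that of Ndufa10, an accessory subunit of the kinase fold, with 80.9 ± 5.06 FPKM in sulfatide libraries and 79.1 ± 5.69 in vehicle libraries (SD, n = 3 each).

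The 8 Ndufaf assembly factors, which act during the building of complex I and are absent from the finished enzyme, were expressed at lower levels, with means over all libraries between 4.08 and 79.3 FPKM. None was called by limma, and 3 had an unadjusted p below 0.05 (Ndufaf1, Ndufaf2 and Ndufaf3), against 3517 of all 10405 genes tested. Ndufaf3 was at 57.8, 38.4 and 50.2 FPKM in sulfatide libraries, against 35.9, 36.9 and 34.5 in vehicle libraries (0.42 ± 0.14, adjusted p = 0.0661). Ndufaf2 had the largest difference, at 31.7, 20.9 and 24.1 FPKM, against 15.1, 21.9 and 17.0 in vehicle libraries (0.48 ± 0.17, adjusted p = 0.0848), and its groups overlapped. Ndufaf8, the most abundant, was at 95.2, 73.1 and 96.4 FPKM, against 67.3, 87.5 and 56.0 (adjusted p = 0.192). The 4 copies and pseudogenes were at mean levels of 1.70 to 5.23 FPKM and were not called (none with an unadjusted p below 0.05). Their sequences are close to those of the parent genes, and how fragments were shared out between copy and parent is uncertain.

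Complex III, the cytochrome bc1 complex, had 3 of 9 subunits called higher (33.3%, against 8.31% of all genes tested) and none lower. Its median log2 fold change was 0.35, against 0.037 for all genes tested. The 3 are among its smaller subunits. Uqcr11, a small membrane subunit (chr10:80402997-80406830), was at 632, 496 and 536 FPKM in sulfatide replicates 1, 2 and 3, against 363, 468 and 360.1 in vehicle replicates 2, 3 and 4 (0.49 ± 0.13, adjusted p = 0.0308). Uqcrb, which lies beside a quinone-binding site, was at 553, 462 and 503 FPKM in sulfatide libraries, against 408, 417 and 362 in vehicle libraries (0.35 ± 0.10, adjusted p = 0.0337). Uqcrh, the hinge protein that meets cytochrome c1, was at 1019, 796 and 982 FPKM in sulfatide libraries, against 670.3, 785 and 674 in vehicle libraries (0.39 ± 0.11, adjusted p = 0.0444). None of these groups overlapped, though in Uqcrh sulfatide replicate 2 lay just above vehicle replicate 3. Uqcrq, the most abundant subunit, was at 1054, 892 and 966 FPKM, against 708, 889 and 680.0 in vehicle libraries (adjusted p = 0.0601).

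The larger subunits of complex III were nearly level. Cyc1, the haem protein cytochrome c1, was at 109.7, 99.6 and 96.0 FPKM in sulfatide libraries, against 89.0, 101 and 91.9 in vehicle libraries (0.11 ± 0.09, adjusted p = 0.407). Uqcrfs1, the Rieske iron-sulfur protein, was at 184, 161 and 170.2 FPKM, against 151, 188 and 141 in vehicle libraries (0.11 ± 0.11, adjusted p = 0.549). Uqcrc1 and Uqcrc2, named core proteins but without redox centres, had log2 fold changes of 0.02 ± 0.08 and 0.05 ± 0.10 (adjusted p = 0.858 and 0.733). All 4 overlapped between the groups.

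Cycs, the somatic cytochrome c, moved against the rest of the chain. This small soluble haem protein carries electrons between complexes III and IV and, once released into the cytosol, triggers the apoptosome. The gene (chr6:50562563-50566538) was at 334, 314 and 309 FPKM in sulfatide replicates 1, 2 and 3, against 446, 458 and 369 in vehicle replicates 2, 3 and 4. Every sulfatide library lay below every vehicle library, and the lowest vehicle library was replicate 4. The log2 fold change was -0.41 ± 0.10 (SE, limma adjusted p = 0.0222), a fold of group means of 0.752. The call was lost without vehicle replicate 2 (-0.37, adjusted p = 0.104), as well as without sulfatide replicate 2 (-0.39, adjusted p = 0.0514) or 3 (-0.38, adjusted p = 0.0832). It held after rescaling to TPM (-0.52, adjusted p = 0.00422) and with the length and GC trend removed. Among other tested genes of 2000 nucleotides or more, the median was -0.02 and 783 of 6606 were called lower.

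Complex IV, cytochrome c oxidase, had 2 of 15 tested subunits called higher (13.3%, against 8.31% of all genes tested) and none lower. Its median log2 fold change was 0.33, against 0.037 for all genes tested. Cox8a, the common isoform of a small membrane subunit (chr19:7215153-7217616), had the smallest adjusted p of all 91 genes. It was at 1100.4, 996 and 1052 FPKM in sulfatide replicates 1, 2 and 3, against 730.4, 835 and 689 in vehicle replicates 2, 3 and 4, with no overlap. The log2 fold change was 0.48 ± 0.09 (adjusted p = 0.00789). It kept its call in all 6 fits that left out a library, with adjusted p of 0.00222 to 0.0477, and lost it in 1 of 17 alternatives, the removal of the length and GC trend. Cox7b, also encoded on the X chromosome, was at 672, 622 and 594 FPKM in sulfatide libraries, against 485, 564 and 436 in vehicle libraries (0.35 ± 0.11, adjusted p = 0.0485).

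None of the 4 most abundant subunits of complex IV was called. Cox4i1, the common form of the regulatory subunit that binds ATP, was at 1217, 1047 and 1182 FPKM in sulfatide libraries, against 854, 1035 and 819.6 in vehicle libraries (0.35 ± 0.11, adjusted p = 0.0524). Cox6b1, which faces cytochrome c, was at 1389, 1114 and 1242 FPKM, against 973, 1090.2 and 829 in vehicle libraries (0.38 ± 0.12, adjusted p = 0.0596). Both sets of libraries were without overlap. Cox6c was at 1323, 1041 and 1182 FPKM in sulfatide libraries, against 913, 1061 and 829 in vehicle libraries (adjusted p = 0.0773), and here sulfatide replicate 2 lay below vehicle replicate 3. Cox7c was at 1335, 1099.6 and 1074 FPKM, against 926, 1064 and 791 in vehicle libraries (0.34 ± 0.13, adjusted p = 0.0962), without overlap. Ndufa4, first assigned to complex I and now placed in complex IV, was at 814, 668 and 719 FPKM, against 544, 703 and 512 (adjusted p = 0.105). Cox7a2l, which joins complexes III and IV into supercomplexes, was at 674, 626 and 629 FPKM, against 531, 582 and 507 in vehicle libraries (0.25 ± 0.08, adjusted p = 0.0652).

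The tissue isoforms of complex IV were scarce in both groups. Cox4i2, the lung and hypoxia form, was at most 0.63 FPKM in any library and made up at most 0.0601% of Cox4i1 and Cox4i2 together. Ndufa4l2, induced by hypoxia, did not exceed 0.59 FPKM. Cox8b, the heart and muscle form, reached 0.73 FPKM at most, and the testis forms Cox7b2 and Cox8c were listed at 0 in every library. These 5 genes were not tested. Cox6a2, the heart and muscle form of Cox6a, made up 2.71, 2.87 and 2.55% of Cox6a1 and Cox6a2 in sulfatide libraries and 3.08, 2.13 and 3.15% in vehicle libraries. Cox7a1 made up 1.92 to 2.04% of Cox7a1 and Cox7a2 in sulfatide libraries and 1.70 to 2.46% in vehicle libraries. The testis form Cox6b2 made up 0.56 to 0.622% of Cox6b1 and Cox6b2 in sulfatide libraries and 0.391 to 0.677% in vehicle libraries. In these 3 pairs the shares of the groups overlapped, and neither isoform was called (adjusted p = 0.136 for Cox6a1, 0.131 for Cox6a2, 0.290 for Cox7a2, 0.375 for Cox7a1 and 0.193 for Cox6b2).

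Complex V, the ATP synthase, had 4 of 17 subunits called higher (23.5%, against 8.31% of all genes tested) and none lower. Its median log2 fold change was 0.32, against 0.037 for all genes tested. All 4 belong to the membrane part and the stalks. Atp5j2, the f subunit of the membrane part (chr5:145183698-145192062), was at 725, 635 and 626 FPKM in sulfatide replicates 1, 2 and 3, against 462, 571 and 443 in vehicle replicates 2, 3 and 4 (0.43 ± 0.11, adjusted p = 0.0289). Atp5pb, the b subunit of the peripheral stalk, was at 564, 484 and 505 FPKM in sulfatide libraries, against 411, 444 and 352 in vehicle libraries (0.36 ± 0.11, adjusted p = 0.0426). Atp5j, the F6 subunit, was at 493, 447 and 458 FPKM, against 345, 420.4 and 339 in vehicle libraries (0.35 ± 0.10, adjusted p = 0.0437). Atp5h, the d subunit, was at 442, 368 and 383 FPKM, against 298, 349.5 and 277 (0.37 ± 0.11, adjusted p = 0.0477). The groups did not overlap in any of the 4. The start of Atp5j overlaps that of Gabpa on the opposite strand, and it is not stated whether counting used the strand, so fragments in the overlap cannot be assigned.

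The 2 large subunits of the catalytic head were nearly level. Atp5b, the catalytic beta subunit, was at 693, 685 and 623 FPKM in sulfatide libraries, against 657, 727 and 645 in vehicle libraries (-0.02 ± 0.09, adjusted p = 0.899). Atp5a1, the alpha subunit, was at 513, 494 and 492 FPKM, against 475, 531 and 478 in vehicle libraries (0.02 ± 0.08, adjusted p = 0.910). Within the head, the small epsilon subunit Atp5e was at 1264, 951 and 1056 FPKM, against 730.4, 945 and 742 in vehicle libraries (0.44 ± 0.13, adjusted p = 0.0506). None of the 5 subunits of the head and central stalk was called by limma. An unadjusted p below 0.05 was found for 3 of them, against 3517 of all 10405 genes tested. The 5 had a median log2 fold change of 0.21, against 0.33 for the 12 of the membrane part and peripheral stalk. Median lengths were 1166 and 663 nucleotides.

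Atp5mpl, a small proteolipid, was the second most abundant subunit of complex V and the most abundant of its membrane part, at 899, 778 and 836 FPKM in sulfatide libraries, against 647, 777 and 593 in vehicle libraries (adjusted p = 0.0735). The ring of c subunits is encoded by 3 genes whose mature proteins are the same. Atp5g3 supplied 62.9, 62.7 and 65.6% of their summed FPKM in sulfatide libraries and 64.6, 62.3 and 63.0% in vehicle libraries, followed by Atp5g2 and Atp5g1. The inhibitor of the enzyme, Atpif1, lies outside the pattern of symbols and was at 559.9, 474 and 454 FPKM in sulfatide libraries, against 419.8, 454 and 373 in vehicle libraries (0.25 ± 0.11, adjusted p = 0.136).

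**Figure D3:**
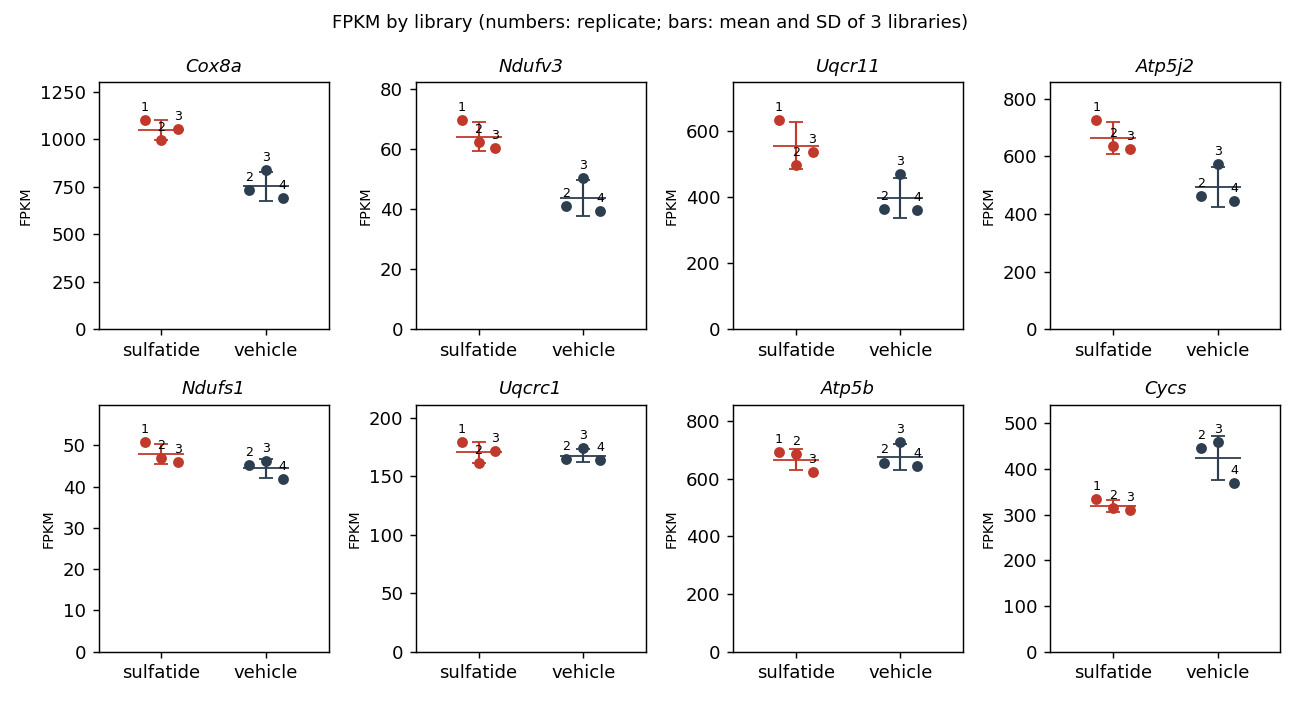
FPKM in each library of 4 called small subunits (Cox8a, Ndufv3, Uqcr11, Atp5j2), 3 larger subunits that were not called (Ndufs1, Uqcrc1, Atp5b) and Cycs; points are libraries numbered by replicate, horizontal lines group means and bars SD (n = 3 each), with axes starting at 0. Sulfatide libraries lie above all vehicle libraries in the first 4 genes and below them in Cycs (319 ± 13.3 and 424 ± 48.1 FPKM), and overlap them in the other 3.

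The 7 core subunits of complex I, the redox subunits Cyc1 and Uqcrfs1 of complex III and the 5 subunits of the head and central stalk of complex V (14 genes) were set against the remaining 49 subunits of these complexes, which include Uqcrc1 and Uqcrc2. The mean log2 level of the 49 exceeded that of the 14 by 0.49, 0.42 and 0.44 in sulfatide replicates 1, 2 and 3, and by 0.35, 0.37 and 0.27 in vehicle replicates 2, 3 and 4. The difference was thus larger in every sulfatide library. The 2 classes also differ in transcript length, and the part of length in this difference was not tested.

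The libraries differed in level across the whole chain, in a similar order in each complex. Relative to the vehicle mean, the mean log2 level of the 91 genes was 0.41, 0.18 and 0.22 in sulfatide replicates 1, 2 and 3, and -0.05, 0.18 and -0.12 in vehicle replicates 2, 3 and 4. Sulfatide replicate 1 was the highest library for 77 of the 91 genes, and vehicle replicate 4 was the lowest for 65. Vehicle replicate 3 exceeded both other vehicle libraries for 87 of the 91 genes, which was so for 50.8% of all genes tested. Its mean level was close to that of sulfatide replicate 2, which lay below it for 40 genes. All 3 sulfatide libraries exceeded vehicle replicates 2 and 4 for 80 of the 91 genes, against 33.4% of all genes tested. This count leaves out vehicle replicate 3, the highest of its group for most of these genes. With replicate 3 included it was 41, against 18.6% of all genes tested. As a share of summed FPKM the 91 genes made up 2.73, 2.36 and 2.43% in sulfatide libraries, and 2.13, 2.44 and 2.02% in vehicle libraries, so the share of vehicle replicate 3 lay within the sulfatide range. Over all tested genes the mean level of vehicle replicate 3 was 0.05 above the vehicle mean.

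**Figure D4:**
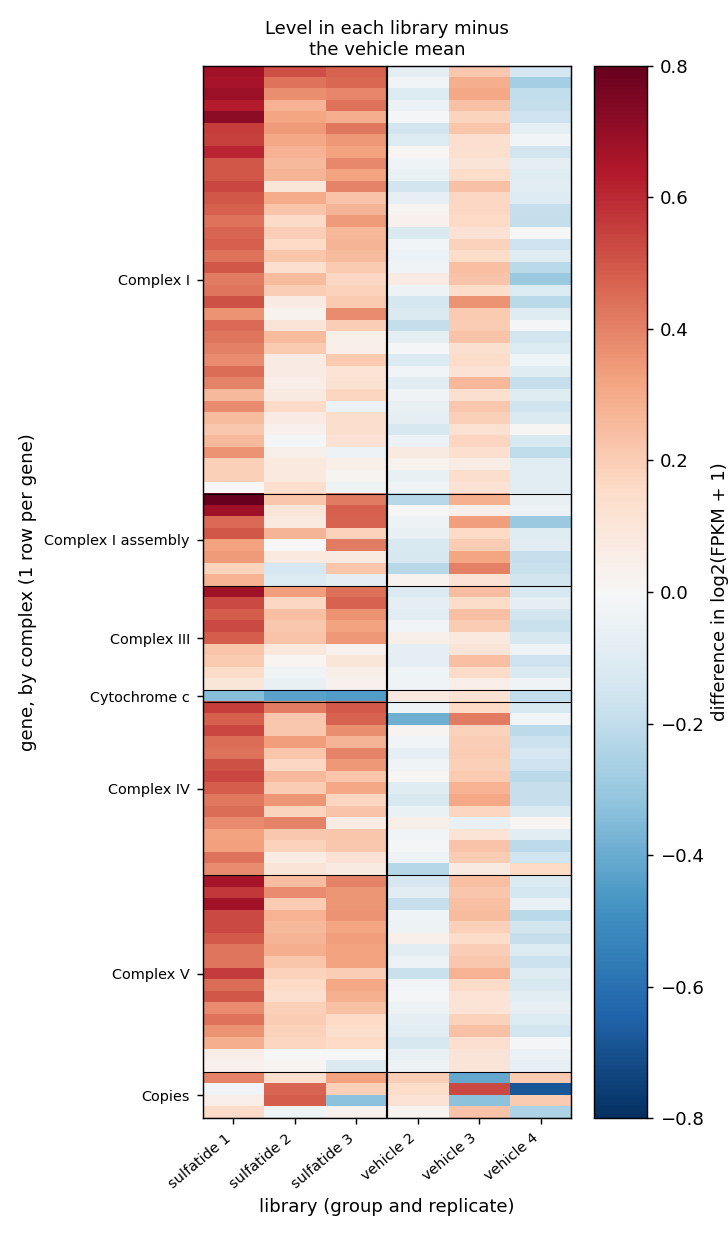
Log2(FPKM + 1) of each tested respiratory chain gene (rows, by complex) in each library (columns), minus the vehicle mean of that gene; red is above and blue below it, on a scale from -0.8 to 0.8. Sulfatide replicate 1 is the reddest column (highest for 77 of 91 genes), vehicle replicate 3 is red in each complex where vehicle replicates 2 and 4 are mostly blue, and the Cycs row is blue in the sulfatide libraries.

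Complex II, succinate dehydrogenase, is wholly encoded in the nucleus and lies outside the pattern of symbols. None of its 8 subunits and assembly factors was called by limma, and none had an unadjusted p below 0.05. Its median log2 fold change was 0.13, with a median length of 2050 nucleotides. Sdha, the flavoprotein that oxidises succinate, was at 127, 125 and 122 FPKM in sulfatide libraries, against 110.5, 126 and 109 in vehicle libraries (0.12 ± 0.09, adjusted p = 0.367).

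The subunits made within the mitochondrion were listed under their own names (ND1, COX1, CYTB and the like). Of 12 tested none was called by limma, 1 had an unadjusted p below 0.05, and the median log2 fold change was 0.14. That gene was COX2, at 67.4, 76.3 and 70.8 FPKM in sulfatide libraries, against 62.3, 58.0 and 52.6 in vehicle libraries (0.31 ± 0.09, adjusted p = 0.0522). The order of the libraries was not that of the nuclear genes. Relative to the vehicle mean, the mean log2 level was 0.02, 0.24 and 0.15 in sulfatide replicates 1, 2 and 3, and 0.04, -0.04 and -0.01 in vehicle replicates 2, 3 and 4. Sulfatide replicate 1, the highest for nuclear genes, was thus the lowest sulfatide library here. These RNAs were read from poly(A)-selected libraries, in which their capture can differ from that of nuclear mRNA.

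Assembly factors outside the pattern were called in both directions. Of 24 factors of complex IV, 7 were higher and 3 lower. The 3 that fell were Coa5, an assembly factor of the intermembrane space, at 60.8, 72.2 and 67.2 FPKM in sulfatide libraries, against 98.2, 98.1 and 88.0 in vehicle libraries (-0.50 ± 0.09, adjusted p = 0.00693); Cox15, which makes haem a, at 8.41, 10.97 and 6.64 FPKM, against 16.9, 13.9 and 14.5 (-0.75 ± 0.16, adjusted p = 0.0144); and Cox18, which inserts COX2 into the membrane, at 9.72, 7.47 and 9.84 FPKM, against 15.2, 13.2 and 13.2 (-0.58 ± 0.13, adjusted p = 0.0152). In none of them did the groups overlap. The 7 that rose were Coa6, Higd1a, Cmc2, Pet100, Pet117, Higd2a and Sco2, with log2 fold changes of 0.33 to 0.92. Over all genes tested 8.31% were called higher and 10.4% lower. The 7 became 0 without vehicle replicate 4, sulfatide replicate 1 or sulfatide replicate 3, 1 without vehicle replicate 2, 1 with no filter or after TPM, and 2 with the length and GC trend removed. Coa5, Cox15 and Cox18 were lower also with that trend removed (adjusted p = 0.00618, 0.0183 and 0.00717), while without vehicle replicate 2 Cox15 and Cox18 lost their calls (adjusted p = 0.0706 and 0.0743). Of 5 factors of complex III, Uqcc3 and Uqcc2 were higher (0.49 ± 0.12 and 0.41 ± 0.11, adjusted p = 0.0275 and 0.0318), and neither was called with no filter or without vehicle replicate 2, vehicle replicate 4, sulfatide replicate 1 or sulfatide replicate 3. Of 11 further factors of complex I, Foxred1 was lower, at 22.9, 18.5 and 21.8 FPKM in sulfatide libraries, against 29.0, 27.1 and 28.3 in vehicle libraries (-0.41 ± 0.10, adjusted p = 0.0279), and none was higher (3 of the 11 had an unadjusted p below 0.05). Foxred1 was not called without vehicle replicate 2, vehicle replicate 4, sulfatide replicate 2 or sulfatide replicate 3. None of 3 factors of complex V was called by limma, and none had an unadjusted p below 0.05.

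No regulator of mitochondrial gene expression was called. Of 13 tested, none passed the limma threshold and 2 had an unadjusted p below 0.05, as did 3517 of all 10405 genes tested. The median log2 fold change of the regulators was 0.0997. Tfb2m, a mitochondrial transcription factor, missed the threshold narrowly, at 15.4, 13.3 and 13.8 FPKM in sulfatide libraries, against 9.94, 11.8 and 10.8 in vehicle libraries (0.36 ± 0.11, adjusted p = 0.0501). Of 17 alternatives, 9 called 1 or 2 regulators higher and 2 called 1 lower. Nrf1, a factor that binds many respiratory chain promoters, was at 17.8, 18.4 and 16.9 FPKM in sulfatide libraries, against 15.4, 16.9 and 16.9 in vehicle libraries (0.10 ± 0.09, adjusted p = 0.477). Gabpa, the DNA-binding subunit of the GA-binding protein, was at 17.7, 19.5 and 21.5 FPKM, against 20.0, 21.0 and 18.4 (adjusted p = 0.930). Tfam, which packages and transcribes mitochondrial DNA, was at 44.2, 34.4 and 40.4 FPKM, against 34.5, 41.0 and 36.3 (adjusted p = 0.652). The coactivators Ppargc1a and Ppargc1b did not exceed 0.09 and 0.77 FPKM in any library and were not tested. Among 11 mitochondrial carriers and uncoupling proteins, none was called by limma or had an unadjusted p below 0.05. The uncoupling protein Ucp2 was at 528, 607 and 487 FPKM in sulfatide libraries, against 519.8, 491 and 491 in vehicle libraries (0.11 ± 0.09, adjusted p = 0.463).

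Since Nrf1, the GA-binding protein and Yy1 are known regulators of this gene set, promoters were searched for their motifs on both strands, over windows of 250 bases before to 50 bases after each RefSeq transcription start (GRCm38.p6). Windows were found for 76 of the 96 genes, of which 74 were tested. The Nrf1 motif (GCGCA and GCGC with any 1 base between them) was in at least 1 window of 17 of the 74 (23.0%), against 12.7% of 8460 tested genes and 4.60% of 32851 promoters. The ETS motif CCGGAAG, bound by the GA-binding protein, was in 17 of 74 (23.0%), against 22.4% and 8.86%. The Yy1 motif AAGATGGC was in 11 of 74 (14.9%), against 5.83% and 2.75%. Among the 18 genes called higher that had a window, these motifs were in 4, 5 and 6, and among the 55 not called in 13, 12 and 5, in the same order. None of the 3 motifs contains another, though matches can overlap at their ends. A match is a run of letters and no evidence of binding, and binding was not measured.

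Parts of 4 of these promoters are shown because their genes were called higher in complexes IV, III and I and hold an ETS or Nrf1 match near the start of transcription. Each runs 5′ to 3′ on the strand of its gene, from RefSeq on GRCm38.p6, with the motif in capitals.
Cox8a (chr19:7217615-7217641, minus strand, ETS): ccgacgtcatttccgaaataCTTCCGG
Uqcr11 (chr10:80406861-80406907, minus strand, ETS): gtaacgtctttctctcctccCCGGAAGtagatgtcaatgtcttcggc
Uqcrh (chr4:116075071-116075100, minus strand, ETS): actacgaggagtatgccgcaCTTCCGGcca
Ndufa11 (chr17:56717682-56717731, plus strand, Nrf1): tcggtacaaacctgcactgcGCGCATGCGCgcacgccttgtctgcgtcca
In Cox8a and Uqcrh the match reads CTTCCGG, the reverse complement of the ETS motif, and begins 5 and 10 bases before the first transcribed base, so that in Cox8a it spans that base. Cox8a holds a further match 32 bases after it. In Uqcr11 and Ndufa11 the matches begin 66 and 60 bases before it. The 4 genes had log2 fold changes of 0.48, 0.49, 0.39 and 0.36 in the order shown.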

How the data were processed

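RNA from cells of bronchoalveolar lavage fluid was extracted with TRIzol, enriched by poly(A) selection and sequenced as strand-specific paired-end libraries, per the labels' protocols. The submitters' processing notes name mm10 as the build. Aligner, counting program, annotation and use of strand were not given in the sources used here. The authors deposited FPKM values, rounded to 2 decimals, for 22800 gene symbols. A further 3 value columns matched no sample and were not used. FPKM hold no counts, so the depth is unknown, no counting interval is given and no count model was run. Relative to vehicle replicate 2, spacing of low values gave approximate depths of 1.06, 1.21 and 0.853 in sulfatide and 1.06 and 0.993 in the other vehicle libraries.

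Values were taken as log2(FPKM + 1), where the pseudocount understates changes of low genes. The 10405 genes with at least 1 FPKM in at least 3 libraries were fitted with limma 3.58.1 in R 4.3.3 (lmFit, eBayes with trend, 2-sided, no covariate), with adjustment over all of them. The script was tested on simulated data. Folds are ratios of mean FPKM. Transcript length and GC content are medians over protein-coding transcripts of the GENCODE M21 basic set. This definition replaced medians over all protein-coding transcripts after results under both had been seen, because all transcripts include short fragments, and both are reported. With 3 libraries a group, exact permutation gives no p below 0.1 and was not used. Gene positions are on GRCm38.

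The genes, companion lists, core subunits and tests were chosen with earlier results of these data known, so no count here is independent support. Named genes are, in each complex, up to 4 called genes with the smallest p, the 2 with the highest level, the largest change of each sign, isoforms of complex IV, and up to 3 called genes of each companion list. Other genes named, the length bins and the genes plotted were chosen after their values were seen. Values of 1 tested respiratory chain gene enter the counts and are not reported here by name. The promoter windows shown depart from the first rule, which took called genes with an Nrf1 match by p. Most of those windows lay in annotated exons, so ETS matches were admitted and windows with more than 7 exon bases left out, a choice made over several rounds with the matches in view. Motif shares do not depend on it. Alternatives were other pseudocounts, filters, scalings (TPM, quantile, median centring), array weights, a replicate block, removal of the length and GC trend, and leaving out each library.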

Additional observations from a re-analysis of the deposited data

How the results depend on the processing

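Numbers of called genes depended on the alternative more than medians did. Genes called higher over all genes tested (865) numbered 522 with no filter, which tests more genes, 467 after rescaling to TPM (with 1527 lower), 2054 with array weights, 297 with the replicate block, and 268 to 1421 with 1 library left out. Genes called lower (1078) numbered 1723 with array weights, 635 with the block and 642 to 1135 with 1 library left out. Of the respiratory chain genes, 19 were called higher, against 4 with no filter, 4 after TPM, 33 after quantile normalization, 32 after median centring, 57 with array weights, 1 with the block, 7 with the length and GC trend removed, and 1 to 56 with 1 library left out. The number of these genes called lower was 0 to 1 with 1 library left out. Over all genes tested, 1089 were called higher after quantile normalization, 1077 after median centring and 990 with the trend removed. Respiratory chain genes were called higher more often than all genes tested after quantile normalization, centring or array weights. The same held without vehicle replicate 3 or sulfatide replicate 2. It did not hold after TPM, with the block, with the basic-set trend removed, or without any other library. With no filter, TPM, quantile normalization, array weights, the block and the trend removed, complex I had 3, 3, 17, 21, 0 and 4 genes higher, and 0 to 21 with 1 library left out. With the same and median centring added last, complex III had 0, 0, 5, 5, 0, 0 and 5, and 0 to 5 with 1 left out, and complex IV had 1, 1, 5, 12, 1, 1 and 5, and 1 to 12 with 1 left out. Complex V had 0 with no filter, 0 after TPM, 8 after centring, 14 with array weights, 0 with the block, 2 with the trend removed, and 0 to 15 with 1 left out. The cause of these shifts was not tested.

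Median log2 fold changes of the respiratory chain genes and of complexes I, III, IV and V stayed positive under all 17 alternatives, while that of all genes tested was -0.061 after TPM. The calls of the assembly factors also varied: with the block, 1 factor of complex IV was higher and 2 lower, and no factor of complex III or further factor of complex I was called. With the length and GC trend removed the medians were 0.084 over all 91 genes less 1 without a length, and 0.11, 0.041, 0.086 and 0.10 for complexes I, III, IV and V. With length taken over all protein-coding transcripts, an alternative added after seeing the data, complex III was at 0.18 and complex IV at 0.18. With the block they were at 0.18 and 0.17. Both groups carry replicate numbers 2 and 3. Deviations of same-numbered libraries from their group means correlated at 0.156 and -0.303, and those of other pairs at -0.399 to 0.538. With so few same-numbered pairs, these values cannot settle whether the numbers pair the libraries. The block results therefore stand beside the main fit, which takes the libraries as unpaired.

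Of single genes, Cox8a was called in 16 of 17 alternatives, Ndufv3 in 15, Cycs in 14, and the others in 6 to 12. Among uncalled genes the sign changed in these cases. With the trend removed, Atpif1 was at -0.030, Cox7a1 at -0.13, Cox7a2 at -0.025, Ndufa2 at -0.0017, Ndufb1 at -0.11, Tfam at -0.047 and Gabpa at 0.012. With all protein-coding transcripts, Ndufb1 was at -0.0086, Gabpa at 0.024 and Ucp2 at -0.014. With the block, Ndufb1 was at -0.10, Tfam at -0.014 and Gabpa at 0.00048. After TPM, Nrf1 was at -0.0020, Tfam at -0.027 and Ucp2 at -0.0048. With array weights Gabpa was at 0.037. With 1 library left out, Atp5b ranged between -0.052 and 0.034 (positive without vehicle replicate 3 or sulfatide replicate 3) and Gabpa between -0.084 and 0.049 (positive without vehicle replicate 3 or sulfatide replicate 1). Rounded FPKM without counts leave low genes imprecise to an unknown degree.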
